A study of Mus musculus with 7 samples.

Results

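A group of 43 genes of the cell division machinery was followed through 3 populations of sorted mouse CD8 dendritic cells. They were taken by name from the 27179 genes of the count files: 26 that act in DNA replication and 17 that act in mitosis. All 43 were found and all 43 passed the filter on low counts. The list was drawn up by function and not from measured values of these libraries, although earlier results of the same data were known.

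CD8 dendritic cells present antigens of dead cells to CD8 T cells, and the series concerns such cells after a systemic inflammatory syndrome. All libraries came from cells of C57BL/6 mice isolated by fluorescence-activated sorting. The CpG CD103 high group (n = 2, both dated 2012) was sorted for a high surface level of CD103, the integrin chain encoded by Itgae, and carried the treatment label CpG, a DNA motif sensed by Toll-like receptor 9. The CD103 low group (n = 2, both dated 2013) and the CD103 negative group (n = 3, replicates 1 and 2 dated 2012 and replicate 3 dated 2013) were untreated. Because CpG and high CD103 occurred in the same samples, their effects cannot be told apart. The sources used here do not give the tissue, the dose, the time after CpG, what was done on the dates, or whether replicates came from separate animals.

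DNA replication starts when the Mcm helicase is loaded on chromatin by Cdc6 and Cdt1 and is later switched on with Cdc45 and the GINS complex. Polymerases, a sliding clamp, lagging-strand enzymes and enzymes that make deoxynucleotides then copy the genome. Mitosis uses another set: cyclins with Cdk1, the Aurora, Polo and Bub kinases, spindle motors, and the anaphase-promoting complex that ends it. Transcription of the replication set is known to depend on E2F factors at the entry to S phase, and that of the mitosis set on a later complex that binds the cell cycle homology region. Conventional dendritic cells in lymphoid organs are known to keep dividing at a low rate.

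The libraries held 4474211 to 4629181 counts, and the 43 genes together took 0.205% to 0.414% of them, with 18 to 2537 counts for a single gene in a single library. Levels are given as CPM, counts per 1000000 counts of the library after scaling. A count of 0 would allow a level of up to 3 counts, or 0.648 to 0.671 CPM by counting error alone, and no member lay near it. Itgae checked the sort, with 1019 and 992 CPM in CpG CD103 high cells, 346 and 375 CPM in CD103 low cells, and 61.7, 62.7 and 54.3 CPM in CD103 negative cells. The 16 markers of the CD8 lineage, such as Cd8a, Xcr1 and Clec9a, were all detected and summed to between 63073 and 81772 CPM per library, mostly through Cd74 and H2-Ab1, antigen presentation genes that other presenting cells also express. Of these markers 9 were called higher and 0 lower in CpG CD103 high over CD103 negative cells, against 14.5% and 11.8% of all genes tested. In bulk RNA, fewer dividing cells and less RNA per dividing cell cannot be told apart.

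The promoters of the replication and mitosis genes are set out first, because the roles differ in the letters these hold. The stretches below run from 170 bases before to 30 bases after the RefSeq transcription start (GRCm38.p6) and read 5′ to 3′ on the gene's strand. Capitals mark an E2F core (TTCCCGC or TTGGCGC or TTCGCGC or TTGCCGC on either strand) in Mcm6 (chr1:128359676-128359875, minus strand), Mcm3 (chr1:20820283-20820482, minus strand) and Rrm1 (chr7:102441525-102441724, plus strand). They mark a cell cycle homology region (TTTGAA or TTCGAA on either strand) in Ccnb2 (chr9:70421525-70421724, minus strand), Top2a (chr11:99024160-99024359, minus strand) and Cdc20 (chr4:118437314-118437513, minus strand).
Mcm6: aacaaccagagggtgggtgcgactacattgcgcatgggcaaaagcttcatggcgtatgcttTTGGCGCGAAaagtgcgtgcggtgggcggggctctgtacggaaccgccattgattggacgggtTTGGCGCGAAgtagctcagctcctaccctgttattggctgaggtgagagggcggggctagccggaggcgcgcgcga
Mcm3: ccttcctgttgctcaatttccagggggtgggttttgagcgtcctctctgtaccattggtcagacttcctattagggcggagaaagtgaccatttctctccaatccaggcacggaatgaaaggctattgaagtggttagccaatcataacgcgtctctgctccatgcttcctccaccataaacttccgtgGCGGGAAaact
Rrm1: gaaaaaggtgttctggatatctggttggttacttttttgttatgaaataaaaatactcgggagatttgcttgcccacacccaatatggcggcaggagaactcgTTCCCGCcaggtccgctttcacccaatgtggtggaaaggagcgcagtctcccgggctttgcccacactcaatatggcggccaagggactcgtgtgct
Ccnb2: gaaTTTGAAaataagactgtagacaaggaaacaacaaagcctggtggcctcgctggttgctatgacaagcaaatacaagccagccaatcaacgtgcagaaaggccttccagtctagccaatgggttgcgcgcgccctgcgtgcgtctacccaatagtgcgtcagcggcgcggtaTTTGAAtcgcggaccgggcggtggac
Top2a: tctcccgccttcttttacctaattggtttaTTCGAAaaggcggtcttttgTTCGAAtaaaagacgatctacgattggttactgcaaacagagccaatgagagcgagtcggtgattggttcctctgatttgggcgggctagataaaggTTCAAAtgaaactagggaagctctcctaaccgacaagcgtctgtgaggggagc
Cdc20: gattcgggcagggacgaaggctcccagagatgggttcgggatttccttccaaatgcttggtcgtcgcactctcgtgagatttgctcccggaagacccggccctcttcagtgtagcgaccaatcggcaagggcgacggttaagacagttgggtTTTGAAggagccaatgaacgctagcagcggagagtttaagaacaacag

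In Mcm6, whose promoter is shown because the gene had the lowest adjusted p of all members, the letters TTGGCGC began 109 and 46 bases before the start and each overlapped the reverse match GCGCGAA. In Mcm3 the reverse match GCGGGAA began 20 bases after the start, and in Rrm1 TTCCCGC began 67 bases before it. Top2a held TTCGAA at 140 and 120 bases before the start and the reverse match TTCAAA at 23 bases before it. Ccnb2 held TTTGAA both 167 bases before and 5 bases after the start, and Cdc20 held it 18 bases before.

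A window from 250 bases before to 50 bases after the start was at hand for 22 of the 26 replication genes and 14 of the 17 mitosis genes. Mcm4, Pole, Gins1, Gins2, Ccna2, Aurkb and Tpx2 were not searched. An E2F core lay in 15 of the 22 replication windows (68.2%), among them those of Mcm3, Mcm5, Mcm6, Mcm7, Pola1 and Uhrf1, and in 3 of the 14 mitosis windows (21.4%), against 10.9% of 27025 genes with a window. Among the genes called lower in the comparison that follows, Mcm2, Pcna and Tyms had a window without an E2F core, and that of Mcm2 held the cell cycle homology region. The cell cycle homology region lay in 5 replication windows (22.7%) and in 12 mitosis windows (85.7%), against 21.7% of all. CCAAT, the box bound by NF-Y, lay in 15 replication windows (68.2%) and 13 mitosis windows (92.9%), against 41.1% of all. Both the E2F core and the cell cycle homology region were present in 3 replication and 2 mitosis windows. A match describes the letters of the window and is not a measured binding site.

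**Figure D1:**
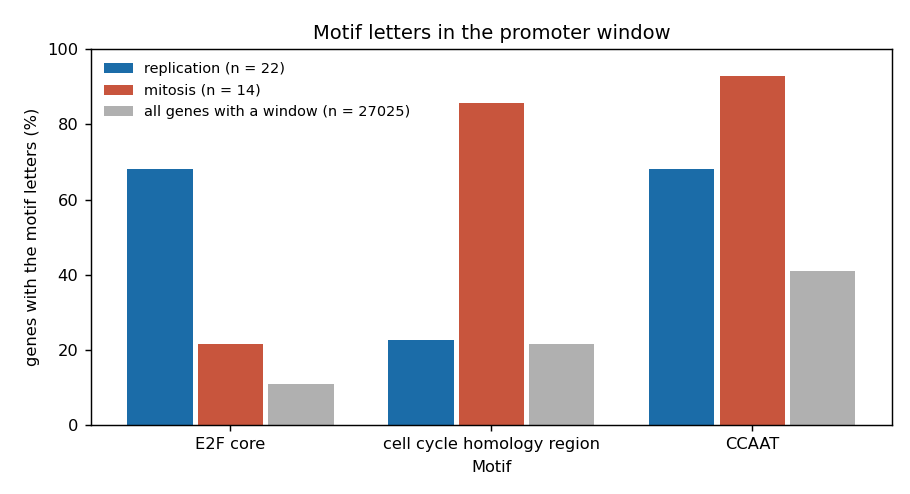
Share of genes (%) whose promoter window holds each motif, for 22 replication genes, 14 mitosis genes and 27025 genes with a window. The E2F core is at 68.2% of replication and 21.4% of mitosis genes, and the cell cycle homology region at 22.7% and 85.7%.

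CpG CD103 high cells were set against CD103 negative cells to ask how the division genes stood in the treated, CD103-rich population. Replication transcripts were lower: 15 of the 26 passed an adjusted p of 0.05 in edgeR's quasi-likelihood test with the date as a term, all of them lower, while 11.8% of the 10863 genes tested were called lower and 14.5% higher. All 26 had a negative log2 fold change, between -1.19 and -0.18 with a median of -0.61, against a median of -0.01 over all genes. An unadjusted p under 0.05 was met by 19 replication genes and 1 mitosis gene, all lower. Over all 10863 genes tested it was met by 4249, of which 1998 were lower. Of the 17 mitosis genes 0 were called at either sign. Their 17 log2 fold changes were also negative, between -0.65 and -0.02, with a median of -0.31. The date term makes this in effect a comparison with CD103 negative replicates 1 and 2, and the 4 libraries of 2012 taken alone gave 14 called replication genes and 0 called mitosis genes.

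Transcripts of all 6 helicase subunits, Mcm2 to Mcm7, were called lower, against 11.8% of all genes, with log2 fold changes between -0.92 and -0.70. Mcm6 had 115 and 117 CPM in CpG CD103 high cells, against 158 and 159.8 CPM in CD103 low cells and 190.4, 246 and 189.8 CPM in CD103 negative cells. The 3 populations did not overlap, with CpG CD103 high lowest and CD103 negative highest, and the log2 fold change of CpG CD103 high over CD103 negative cells was -0.92 (SE 0.12, adjusted p = 0.00059), or 53.0% of the level in CD103 negative cells.

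Mcm3 had 119.8 and 118 CPM in CpG CD103 high cells, 140.3 and 155 CPM in CD103 low cells, and 179.6, 214 and 154 CPM in CD103 negative cells. Mcm5 had 109 and 122 CPM in CpG CD103 high cells, 159.8 and 181 CPM in CD103 low cells, and 165, 211 and 155 CPM in CD103 negative cells. Both CpG CD103 high libraries lay below all 5 untreated ones for these subunits, while CD103 low and CD103 negative cells overlapped. Over CD103 negative cells, the log2 fold change was -0.73 (SE 0.11, adjusted p = 0.00105) for Mcm3 and -0.70 (SE 0.13, adjusted p = 0.0034) for Mcm5.

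Mcm4 had 91.8 and 83.6 CPM in CpG CD103 high cells, 104 and 126 CPM in CD103 low cells, and 141, 175 and 128 CPM in CD103 negative cells. Mcm2 had 75.0 and 68.8 CPM in CpG CD103 high cells, 80.8 and 82.5 CPM in CD103 low cells, and 99.0, 135 and 97.7 CPM in CD103 negative cells. Mcm7 had 57.0 and 65.0 CPM in CpG CD103 high cells, 71.5 and 80.5 CPM in CD103 low cells, and 94.4, 127 and 76.8 CPM in CD103 negative cells. Again every CpG CD103 high value lay below every untreated value. The log2 fold changes were -0.85 for Mcm4 (SE 0.13, adjusted p = 0.00149), -0.70 for Mcm2 (SE 0.14, adjusted p = 0.00559) and -0.86 for Mcm7 (SE 0.15, adjusted p = 0.00256).

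The factors that load and activate the helicase gave 0 calls among 6, against 11.8% of all genes called lower. They were Cdc6 and Cdt1, the loaders, Mcm10, which helps to start the helicase, and Cdc45, Gins1 and Gins2, its cofactors. Their log2 fold changes ran from -0.54 for Gins1 to -0.30 for Cdc6, with a median of -0.43, SE of 0.16 to 0.24 and adjusted p of 0.0811 to 0.385. They were less abundant than the subunits per length, at 2.69 to 16.5 CPM per kb against 27.1 to 57.9 CPM per kb, averaged over the 7 libraries. The unadjusted p of edgeR's quasi-likelihood test was 0.0262 for Cdt1, 0.0441 for Gins1 and 0.0457 for Cdc45, and above 0.05 for Mcm10, Gins2 and Cdc6. For 0 of these 6, against 6 of the 6 subunits and 17.6% of all genes, did both CpG CD103 high libraries lie below all untreated libraries. Among 6 genes, 0 is close to that share of all genes. Whether the fold changes of the subunits and of the loading factors differ was not tested.

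Among the polymerases, Pola1, the catalytic subunit of polymerase alpha, had 27.1 and 26.2 CPM in CpG CD103 high cells, 33.6 and 40.5 CPM in CD103 low cells, and 44.6, 56.3 and 39.4 CPM in CD103 negative cells. It was lower by a log2 fold change of -0.92 (SE 0.16, adjusted p = 0.00243), with the CpG CD103 high libraries below the rest. Its partner Prim1, the primase that lays the RNA primer, had 14.2 and 15.7 CPM in CpG CD103 high cells, 18.2 and 20.7 CPM in CD103 low cells, and 21.1, 23.9 and 22.1 CPM in CD103 negative cells, in the same order of groups without overlap (log2 fold change -0.59, SE 0.17, adjusted p = 0.0277). Pole, the catalytic subunit of the leading-strand polymerase, had 35.3 and 47.5 CPM in CpG CD103 high cells and 41.7 to 56.2 CPM in CD103 negative cells, with a log2 fold change of -0.18 (SE 0.17, adjusted p = 0.475).

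Of 5 genes of the clamp, single-strand binding and lagging-strand work, 4 were called lower, against 11.8% of all genes. Rpa2, a subunit of the protein that coats single strands, had 20.6 and 22.6 CPM in CpG CD103 high cells, 26.8 and 31.5 CPM in CD103 low cells, and 33.4, 37.9 and 28.1 CPM in CD103 negative cells. Lig1, the ligase that seals Okazaki fragments, had 68.1 and 75.3 CPM in CpG CD103 high cells, 80.1 and 90.8 CPM in CD103 low cells, and 97.3, 129 and 86.2 CPM in CD103 negative cells. For both, the CpG CD103 high libraries were the lowest pair, and the log2 fold change over CD103 negative cells was -0.72 for Rpa2 (SE 0.15, adjusted p = 0.00693) and -0.66 for Lig1 (SE 0.14, adjusted p = 0.00775).

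Pcna, the sliding clamp, had 43.5 and 39.9 CPM in CpG CD103 high cells, 61.1 and 63.7 CPM in CD103 low cells, and 49.6, 64.0 and 57.7 CPM in CD103 negative cells (log2 fold change -0.45, SE 0.14, adjusted p = 0.0418). Fen1, the nuclease that trims Okazaki flaps, had 50.1 and 60.7 CPM in CpG CD103 high cells, 52.7 and 56.8 CPM in CD103 low cells, and 68.7, 83.0 and 50.2 CPM in CD103 negative cells (log2 fold change -0.45, SE 0.14, adjusted p = 0.0349). Pcna did not overlap between CpG CD103 high and untreated libraries, whereas Fen1 did, through CD103 negative replicate 3 and both CD103 low libraries. Rfc3, a clamp loader subunit, missed the threshold at a log2 fold change of -0.64 (SE 0.22, adjusted p = 0.0531).

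Of the 4 enzymes of nucleotide supply, 2 were called lower, against 11.8% of all genes. Rrm1, the large subunit of ribonucleotide reductase, had 81.4 and 97.9 CPM in CpG CD103 high cells, 128 and 159 CPM in CD103 low cells, and 128, 149 and 121 CPM in CD103 negative cells, with the treated libraries below all others (log2 fold change over CD103 negative cells -0.62, SE 0.14, adjusted p = 0.00853). Tyms, thymidylate synthase, was low throughout, at 4.88 and 7.40 CPM in CpG CD103 high cells, 10.9 and 14.0 CPM in CD103 low cells, and 12.3, 15.7 and 16.4 CPM in CD103 negative cells. It had the most negative log2 fold change of the 43 genes, -1.19 (SE 0.27, adjusted p = 0.00973), and no overlap between treated and untreated libraries. The other two, Rrm2, the small subunit, and Tk1, thymidine kinase, gave -0.25 (SE 0.18, adjusted p = 0.326) and -0.37 (SE 0.18, adjusted p = 0.147).

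Uhrf1, which guides maintenance DNA methylation at replication forks, had 44.6 and 46.8 CPM in CpG CD103 high cells, 58.4 and 75.4 CPM in CD103 low cells, and 74.4, 92.5 and 73.2 CPM in CD103 negative cells. Its log2 fold change over CD103 negative cells was -0.87 (SE 0.15, adjusted p = 0.00279), with the CpG CD103 high libraries below all others. E2f1, the S-phase transcription factor of the list, had 33.3 and 26.9 CPM in CpG CD103 high cells, 26.8 and 36.8 CPM in CD103 low cells, and 34.3, 38.8 and 31.1 CPM in CD103 negative cells. These overlapped, and the log2 fold change was -0.28 (SE 0.18, adjusted p = 0.275).

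**Figure D2:**
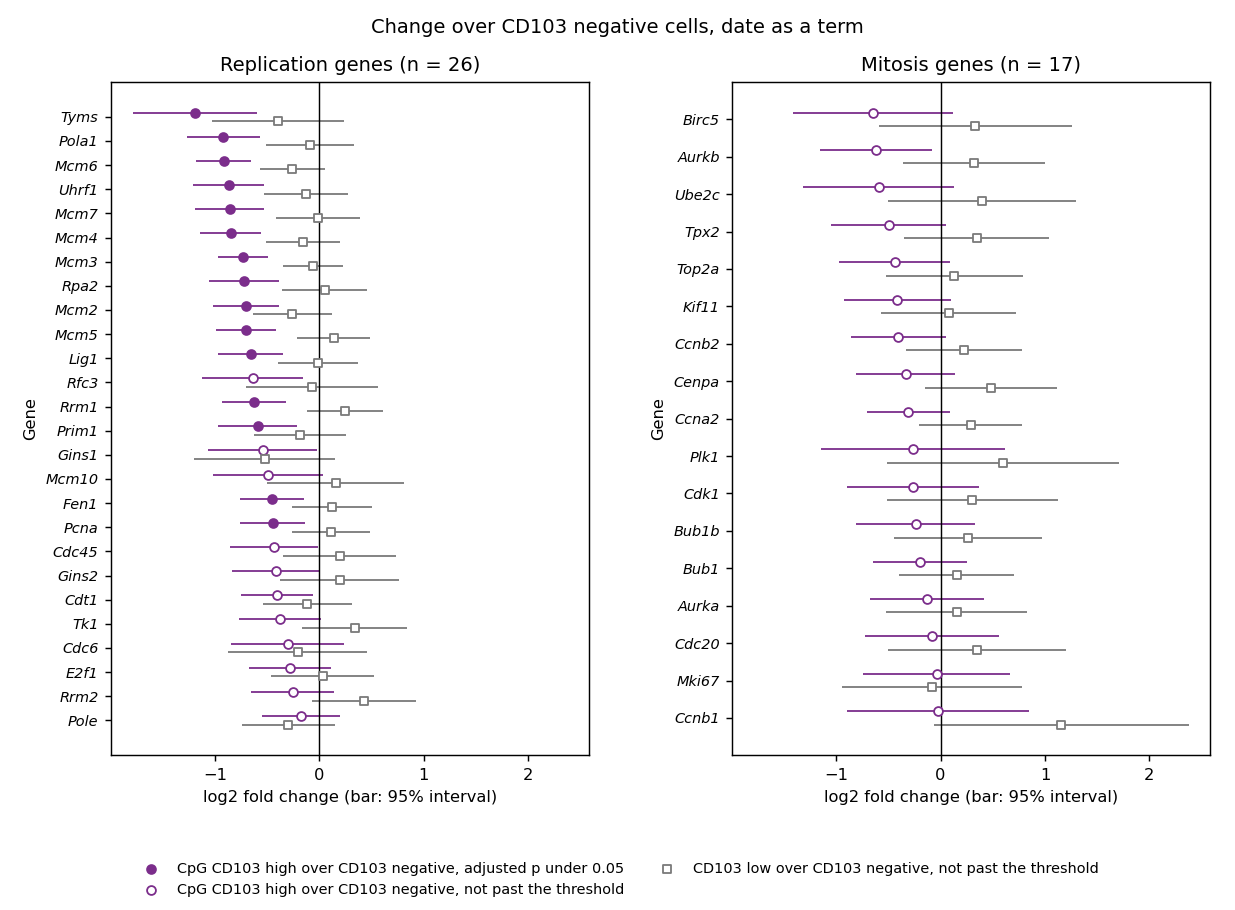
Log2 fold change with its 95% interval (x axis) of each gene (y axis) in CpG CD103 high over CD103 negative cells (circles, filled where the adjusted p is under 0.05) and in CD103 low over CD103 negative cells (squares). Filled circles mark 15 of 26 replication genes and 0 of 17 mitosis genes, and no square is past the threshold.

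Both CpG CD103 high libraries lay below all 3 CD103 negative libraries for 16 of 26 replication genes, against 22.7% of all genes tested, and for 0 of 17 mitosis genes. They lay below all 5 untreated libraries for 14 of 26 replication genes, against 17.6% of all genes, and again for 0 of 17 mitosis genes. The set called lower was steady for Mcm2 to Mcm7, Pola1 and Uhrf1, these 8 of the 15 being called in all 15 alternative analyses. Without CD103 negative replicate 2 the count was 9, with Pcna, Rrm1, Tyms, Prim1, Lig1 and Fen1 past the threshold no longer. Leaving out the first CpG CD103 high library took Pcna, Tyms, Prim1 and Fen1 from the set, the second took Pcna and Prim1, CD103 negative replicate 1 took Prim1, and either CD103 low library took Pcna and Fen1, with 11, 13, 15, 14 and 14 calls in these fits, all lower. Mcm10 joined the calls without CD103 negative replicate 1, and Rfc3 did without either CD103 low library.

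Markers of other cells were read beside these counts. Of all genes tested 14.5% were called higher and 11.8% lower in CpG CD103 high over CD103 negative cells. A list of 13 erythroid and platelet markers summed to 128 and 96.8 CPM in CpG CD103 high cells, 48.4 and 43.4 CPM in CD103 low cells, and 35.8, 44.0 and 39.6 CPM in CD103 negative cells, and 8 of its 10 tested genes were called higher. Macrophage markers summed to 375 and 473 CPM in CpG CD103 high cells, against 197 to 236 CPM in CD103 low cells and 132 to 204 CPM in CD103 negative cells, mostly through Hmox1, a haem-degrading enzyme, with 1 of 7 tested genes called higher and 2 lower. Progenitor markers, mostly Kit, summed to 375 and 357 CPM in CpG CD103 high cells, 435 and 433 CPM in CD103 low cells, and 395, 393 and 462 CPM in CD103 negative cells. Other lists were lower or mixed. Markers of type 2 conventional dendritic cells summed to 29.5 and 20.2 CPM in CpG CD103 high cells, 70.2 and 58.4 CPM in CD103 low cells, and 48.1, 42.3 and 104 CPM in CD103 negative cells, with 4 of 7 tested genes called lower over CD103 negative cells. Monocyte and neutrophil markers summed to 185 and 125 CPM in CpG CD103 high cells, 298 and 272 CPM in CD103 low cells, and 239.6, 205 and 291 CPM in CD103 negative cells, with 3 of 6 called higher and 2 lower. Of the plasmacytoid dendritic cell markers 3 of 6 were called lower and 1 higher, of the B cell markers 3 of 4 lower, of the progenitor markers 2 of 4 lower, and the 1 tested NK cell marker was lower. The part of all these cells in the lower replication transcripts was not tested.

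The mitosis genes split the CpG CD103 high group. All 17 were higher in replicate 2 than in replicate 1, by a median ratio of 1.87 (range 1.34 to 3.27), while 50.3% of all genes tested lay that way and their median ratio was 1.00. Replication genes differed less between the same libraries, with a median ratio of 1.11 (range 0.808 to 1.52) and 19 of 26 higher in replicate 2. Replicate 1 was the lowest of the 7 libraries for 14 of 17 mitosis genes and for 15 of 26 replication genes, against 17.8% of all genes. Replicate 2 was at or above the lowest untreated library for 17 of 17 mitosis genes and 12 of 26 replication genes, against 73.2% of all genes, and was the highest of the 7 libraries for 5 of 17 and 0 of 26, against 17.2%.

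Mki67, which encodes the proliferation antigen Ki-67 that coats mitotic chromosomes, had 286 and 569 CPM in CpG CD103 high cells, 288 and 486 CPM in CD103 low cells, and 348, 528 and 409 CPM in CD103 negative cells. Replicate 1 of the treated cells was thus the lowest library and replicate 2 the highest, and the log2 fold change over CD103 negative cells was -0.04 (SE 0.32, adjusted p = 0.948). Its sign turned when the first CpG CD103 high library was left out, at 0.38, and when the second CD103 negative library was left out, at 0.30.

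Top2a, the topoisomerase that untangles sister chromatids, had 166 and 307 CPM in CpG CD103 high cells, 245 and 293 CPM in CD103 low cells, and 271, 369 and 246 CPM in CD103 negative cells. Ccna2, cyclin A, had 60.3 and 94.1 CPM in CpG CD103 high cells, 85.1 and 92.4 CPM in CD103 low cells, and 88.5, 103 and 72.6 CPM in CD103 negative cells. In both genes the first treated library was the lowest of all and the second lay among the untreated ones. The log2 fold changes were -0.44 for Top2a (SE 0.24, adjusted p = 0.202) and -0.31 for Ccna2 (SE 0.18, adjusted p = 0.228).

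Plk1, the Polo kinase of mitotic entry, was singled out after its values were seen, as it had the largest ratio between the treated libraries. It had 17.7 and 58.0 CPM in CpG CD103 high cells, 42.0 and 53.6 CPM in CD103 low cells, and 38.2, 52.8 and 31.5 CPM in CD103 negative cells. The 2 treated values bracketed all 5 untreated ones, and the log2 fold change was -0.27 (SE 0.40, adjusted p = 0.655).

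The mitotic sub-roles gave 0 calls in each. Among the 2 to 5 genes of a sub-role, 0 is close to the 11.8% of all genes called lower. The cyclins and Cdk1 (Ccna2, Ccnb1, Ccnb2, Cdk1) had log2 fold changes of -0.40 to -0.02. The kinases Aurka, Aurkb, Bub1, Bub1b and Plk1 had -0.62 to -0.13, and Aurkb, the kinase of the chromosomal passenger complex, had the lowest adjusted p of the role, 0.0855. Cdc20 and Ube2c, the activator and the ubiquitin-conjugating enzyme of the anaphase-promoting complex, had -0.08 and -0.59. The spindle proteins Kif11 and Tpx2 had -0.42 and -0.49. The chromosome-bound Cenpa, the centromeric histone, and Birc5, survivin, had -0.33 and -0.65.

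The standard error of the log2 fold change had a median of 0.25 over the mitosis genes (0.18 to 0.40) and of 0.16 over the replication genes (0.11 to 0.27). Without CpG CD103 high replicate 2 the median log2 fold change of the mitosis genes was -0.79, and without replicate 1 in its place it was 0.0071. Each of these fits holds 1 treated library, which was assumed to vary like the other groups. With the replicate number as a further term over all 7 libraries, 7 of the 17 mitosis genes were called. The share of all genes called in that fit is not given here, so the 7 calls have no background to be read against. The absence of mitosis calls thus depends on leaving the replicate term out. It also depends on CpG CD103 high replicate 2, without which mitosis genes were called lower.

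**Figure D3:**
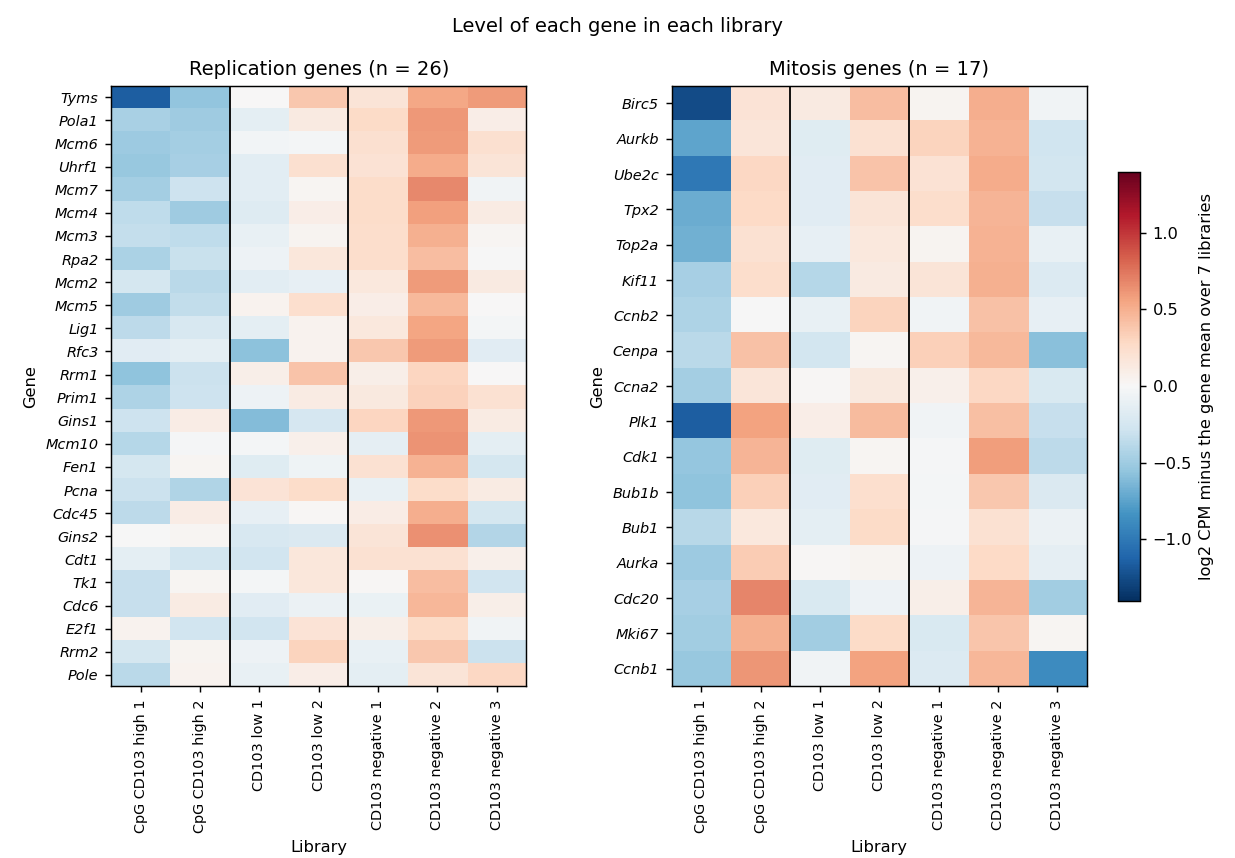
Level of each gene (rows, in order of log2 fold change) in each library (columns), as log2 CPM minus the gene's mean over the 7 libraries. Most replication genes are low in both CpG CD103 high libraries, whereas mitosis genes are low in replicate 1 and near or above their mean in replicate 2.

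Averaged over each role, the level of the 26 replication genes was 5.18 ± 0.10 log2 CPM in CpG CD103 high cells (SD, n = 2), 5.44 ± 0.16 in CD103 low cells (SD, n = 2) and 5.66 ± 0.24 in CD103 negative cells (SD, n = 3). For the 17 mitosis genes it was 5.59 ± 0.67 in CpG CD103 high cells, 5.78 ± 0.25 in CD103 low cells and 5.81 ± 0.35 in CD103 negative cells. The SD of the mitosis level in CpG CD103 high cells was thus the widest of the 6. By library, the mitosis level was 5.11 and 6.06 in CpG CD103 high cells, 5.60 and 5.95 in CD103 low cells, and 5.79, 6.16 and 5.48 in CD103 negative cells. The replication level was 5.10 and 5.25 in CpG CD103 high cells, 5.33 and 5.55 in CD103 low cells, and 5.59, 5.93 and 5.47 in CD103 negative cells.

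The replication level minus the mitosis level came to -0.01 and -0.82 in CpG CD103 high cells, -0.27 and -0.40 in CD103 low cells, and -0.20, -0.24 and -0.001 in CD103 negative cells. Its size in 1 library depends on gene length, so only its change between libraries is read. CpG CD103 high replicate 2 stood below all others on this difference, while replicate 1 lay within the range of the untreated libraries. No p is given for these averages over chosen genes.

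**Figure D4:**
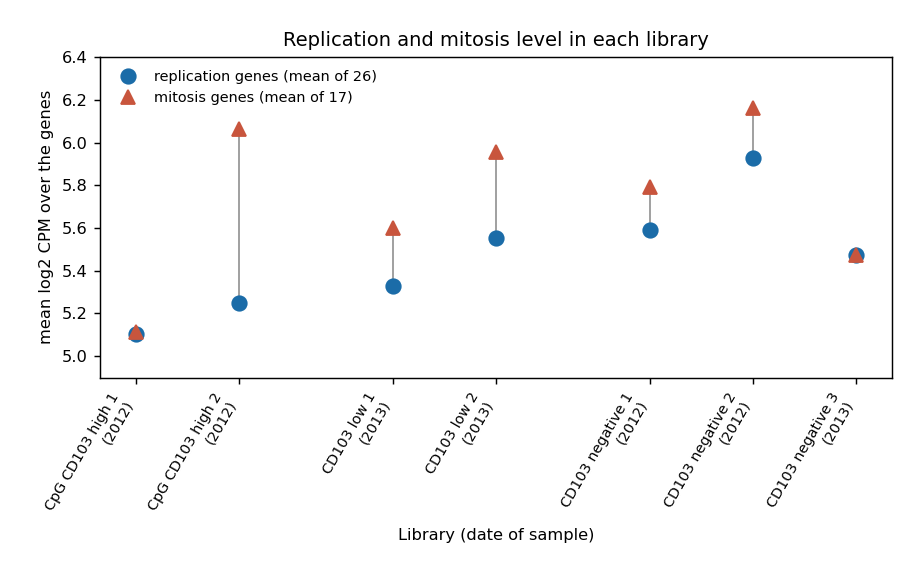
Mean log2 CPM (y axis) of the 26 replication genes (circles) and the 17 mitosis genes (triangles) in each library (x axis, with its date). The replication level is lowest in CpG CD103 high cells, at 5.10 and 5.25, and the mitosis level of these libraries lies at 5.11 and 6.06.

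The untreated pairs of 1 group and date also differed between replicates. In CD103 low cells replicate 2 exceeded replicate 1 for 26 of 26 replication and 17 of 17 mitosis genes, against 51.5% of all genes, with median ratios of 1.14 and 1.28. In CD103 negative cells replicate 2 exceeded replicate 1 for 25 of 26 and 17 of 17, against 49.1% of all genes, with median ratios of 1.27 and 1.32. The corresponding ratios of the CpG CD103 high pair were 1.11 and 1.87, and the difference between the pairs was not tested.

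CD103 low cells were set against CD103 negative cells to see whether a low level of CD103, above that of CD103 negative cells and without CpG, went with such changes. It gave 0 calls among the 26 replication genes and 0 among the 17 mitosis genes, at an adjusted p of at least 0.717 in edgeR's quasi-likelihood test, and 0 at an unadjusted p under 0.05. DESeq2 also called 0 in each role. The background was low as well, with 0.0829% of all genes called lower and 0.0552% higher. At an unadjusted p under 0.05 in the edgeR test stood 797 of all 10863 genes. The median log2 fold change was -0.04 for replication genes, 15 of them negative, and 0.30 for mitosis genes, 16 of them positive, against 0.01 for all genes. The 95% intervals were wide, reaching from -1.20 to 0.93 over the replication genes and from -0.94 to 2.37 over the mitosis genes.

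In effect this contrast compares CD103 low cells with CD103 negative replicate 3 alone, the only CD103 negative library of 2013. Without that library the date term drops out, and CD103 low and CD103 negative cells then share no date. Group and date thus cannot be told apart in that fit. It called 7 replication genes lower (Mcm2, Mcm3, Mcm4, Mcm6, Mcm7, Gins1 and Fen1) and no mitosis gene. The medians were -0.36 for replication and -0.21 for mitosis genes. The share of all genes called in that fit is not given here, so the 7 calls have no background to be read against. At the median, replicate 3 held less of both roles than replicates 1 and 2, with log2 differences of -0.32 for replication and -0.53 for mitosis genes and 0 calls in either role (8 and 2 at an unadjusted p under 0.05). Over all 10863 genes tested the median was 0.01, with 235 called higher and 141 lower. An unadjusted p under 0.05 in edgeR's quasi-likelihood test was met by 2215 of them, 964 of these lower. The difference between replicate 3 and replicates 1 and 2 shares its CD103 negative libraries with both contrasts above. Replicate 3 was also highest in the summed markers of plasmacytoid dendritic cells, 230.3 CPM against 138 to 167.5 CPM in the other libraries, and of type 2 conventional dendritic cells, 104 CPM against 20.2 to 70.2 CPM. CD103 low replicate 2 held 51.7 CPM of T cell markers against 4.48 to 11.4 CPM elsewhere. The part of these cells in the levels of the division genes was not tested.

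CpG CD103 high cells were last set against CD103 low cells, a contrast that crosses the dates through the CD103 negative libraries. With CD103 negative replicate 3 left out nothing links the dates, and group and date cannot be told apart. An unadjusted p under 0.05 in edgeR's quasi-likelihood test was met by 14 replication and 2 mitosis genes, all lower. Over all 10863 genes tested it was met by 2553, of which 1196 were lower. Replication genes were called lower in 3 of 26 cases, against 2.78% of all genes called lower and 3.44% higher, and mitosis genes in 0 of 17. The median log2 fold change was -0.65 for replication and -0.60 for mitosis genes, against -0.02 for all genes, with 25 of 26 and 16 of 17 negative. Both medians carry the date term. It rests on CD103 negative replicate 3, whose medians against replicates 1 and 2 were -0.32 for replication and -0.53 for mitosis genes. The mean levels, taken without that term, lay closer together. For replication genes they were 5.18 log2 CPM in CpG CD103 high and 5.44 in CD103 low cells, and for mitosis genes 5.59 and 5.78. The 3 called replication genes were Rrm1 (-0.87, SE 0.22, adjusted p = 0.0429), Mcm5 (-0.84, SE 0.20, adjusted p = 0.0392) and Mcm3 (-0.67, SE 0.17, adjusted p = 0.045), whose CPM in every library stand above. These calls lay close to the threshold: the count was 0 without CpG CD103 high replicate 1, without either CD103 low library or without CD103 negative replicate 2, 1 (Rrm1) with the second CpG CD103 high library left out, 4 with CD103 negative replicate 1 left out, and 6 with CD103 negative replicate 3 left out, where only 2 of the 3 genes were among the calls. Without CpG CD103 high replicate 2, mitosis genes were also called lower. That fit holds a single treated library, and the share of all genes called in it is not given here.

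Genes of the same pathways outside the 43 were read from lists drawn up by function. Of 46 further replication genes, 13 were called lower and 0 higher in CpG CD103 high over CD103 negative cells, against 11.8% of all genes called lower, with a median log2 fold change of -0.47. Hells, a chromatin remodeller of replicating DNA, had 40.6 and 43.3 CPM in CpG CD103 high cells, 80.6 and 77.7 CPM in CD103 low cells, and 81.0, 88.0 and 83.4 CPM in CD103 negative cells, with the treated libraries well below the 5 untreated ones. Its log2 fold change was -1.01 over CD103 negative cells (SE 0.11, adjusted p = 0.000238) and -0.93 over CD103 low cells (SE 0.17, adjusted p = 0.0142). Dut, which clears dUTP, and Pole2, a polymerase epsilon subunit, had log2 fold changes over CD103 negative cells of -0.94 (SE 0.15, adjusted p = 0.00151) and -1.07 (SE 0.21, adjusted p = 0.00544). Hells passed over CD103 low cells in the fit of all libraries but not without CD103 low replicate 1 or 2, where its log2 fold changes were -0.91 and -0.96.

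Of 54 further mitosis genes, 4 were called lower and 0 higher, a share below the 11.8% of all genes called lower, with a median of -0.22. They were Cenpm, a centromere protein, at -0.76 (SE 0.21, adjusted p = 0.0232), the kinase Pbk at -0.88 (SE 0.25, adjusted p = 0.0274), the kinetochore protein Spc24 at -0.69 (SE 0.20, adjusted p = 0.0277), and the condensin subunit Smc4 at -0.49 (SE 0.14, adjusted p = 0.0312). Cenpm was the 1 gene of this list called over CD103 low cells, at -1.29 (SE 0.33, adjusted p = 0.0471). Over CD103 negative cells Cenpm lost its call without any 1 of the 4 libraries of 2012 (-0.88 to -0.66), Pbk without CpG CD103 high replicate 1 or either CD103 negative library of 2012 (-0.93 to -0.69), and Spc24 without CpG CD103 high replicate 1, either CD103 low library or CD103 negative replicate 2 (-0.69 to -0.44). Over CD103 low cells Cenpm lost its call without any 1 of the 7 libraries (-1.55 to -0.67).

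Of 37 tested genes of G1 control and its inhibitors, 4 were called lower and 0 higher, a share near the 11.8% of all genes called lower, with a median of -0.19. Cdk4, the kinase that starts the passage to S phase, had 111 and 101 CPM in CpG CD103 high cells, 110.3 and 124 CPM in CD103 low cells, and 169.9, 178 and 121 CPM in CD103 negative cells. The treated libraries overlapped those of CD103 low cells, and the log2 fold change over CD103 negative cells was -0.71 (SE 0.10, adjusted p = 0.000789). Skp2, a ubiquitin ligase subunit that marks inhibitors for destruction, was at -1.10 (SE 0.27, adjusted p = 0.0161) and Trp53 at -0.31 (SE 0.08, adjusted p = 0.0235), and neither was called when any 1 of the 4 libraries of 2012 was left out, with log2 fold changes of -1.12 to -1.08 for Skp2 and -0.32 to -0.30 for Trp53. Wee1, the kinase that holds back Cdk1, completed the 4 at -0.66. Over CD103 low cells Cdk4 had a log2 fold change of -0.67 (SE 0.16, adjusted p = 0.0352), which was -0.15 without the date term and missed the threshold without any 1 library other than CpG CD103 high replicate 1 (-0.76 to -0.13).

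The inhibitors and D cyclins that are usually read for cell cycle exit were not called. Cdkn1a, the p21 inhibitor, had 44.8 and 42.6 CPM in CpG CD103 high cells, 52.4 and 41.6 CPM in CD103 low cells, and 59.7, 52.8 and 37.9 CPM in CD103 negative cells, with a log2 fold change over CD103 negative cells of -0.36 (SE 0.14, adjusted p = 0.0813). Cdkn1b, the p27 inhibitor, had 151 and 89.0 CPM in CpG CD103 high cells, 62.4 and 76.5 CPM in CD103 low cells, and 107, 66.2 and 65.3 CPM in CD103 negative cells, at 0.47 (SE 0.25, adjusted p = 0.2). Cdkn1a overlapped between all 3 groups, and Cdkn1b differed widely between the libraries of CpG CD103 high and of CD103 negative cells. Ccnd1, Ccnd2 and Ccnd3 had log2 fold changes of -0.28, -0.07 and 0.08, at adjusted p of 0.0823, 0.826 and 0.662. In CD103 low over CD103 negative cells, 0 genes of these 3 lists were called, by edgeR's quasi-likelihood test, with 3 at an unadjusted p under 0.05.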

How the data were processed

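Total RNA of 7 libraries of sorted mouse CD8 dendritic cells was sequenced. The deposited files hold raw counts of reads per gene as whole numbers, per the file headers and values. CASAVA, Subread 1.4.6, featureCounts and mm10 are named without roles, per the submitters' processing notes. The sources used here do not give the strand setting or the handling of reads that map to several places, so overlapping antisense transcripts could not be told apart. A table of 7 further columns, whose names match no sample label, was not used here.

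Entrez identifiers were matched to RefSeq symbols of GRCm38.p6 (25275 of 27179, 93.0%). The 43 members and all other lists (293 entries in 15 lists, 291 found) were chosen with earlier results of these data known. Counts were tested with edgeR 4.0.16 in R 4.3.3: filterByExpr (10863 genes kept), TMM scaling and a quasi-likelihood model with group and date as terms over all 7 libraries, with 3 residual degrees of freedom. P-values were adjusted by Benjamini-Hochberg over all genes tested, and genes called at an adjusted p under 0.05. The fit was also run on counts simulated from its own estimates, for CpG CD103 high over CD103 negative cells alone. No result here rests on that run. The SE is the log2 fold change divided by the square root of F. Role levels are means of log2 CPM with a prior count of 2. Per-length levels divide CPM by the gene length listed in the files.

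Every member is accounted for. Members called in any comparison, and the 3 most abundant of each role, are given in every library. From the other lists, up to 3 called genes by adjusted p in each direction and comparison are named, with Cdkn1a, Cdkn1b and the D cyclins whatever their result. Further names were added after their values were seen. Alternatives were other scalings, filters, DESeq2 1.42.0, no date term, single dates, a replicate block and each library left out. Libraries were checked for duplicates, and none was found.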

Additional observations from a re-analysis of the deposited data

How the results depend on the processing

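Of the 15 replication genes called lower in CpG CD103 high over CD103 negative cells, 8 were called in all 15 alternatives. DESeq2 called 11 replication and 0 mitosis genes. The shares of all genes called with DESeq2, with the replicate block or with 1 library left out are not given here. The counts of those fits thus have no background to be read against. Leaving out 1 library gave 9 to 15 replication calls and 0 to 12 mitosis calls, with mitosis medians between -0.79 and 0.0071. The log2 fold change of Mki67 then ran from -0.63 to 0.38, and it was 0.30 when CD103 negative replicate 2 was left out. All 26 and 17 log2 fold changes were negative under both other scalings. In CD103 low over CD103 negative cells, leaving out 1 library gave 0 to 7 replication calls and medians of -0.36 to 0.082 for replication and -0.21 to 0.42 for mitosis genes, and without the date term the replication median was -0.25 and the mitosis median -0.05. In CpG CD103 high over CD103 low cells, 0 replication genes were called with library totals and 0 with no filter, leaving out 1 library gave 0 to 6 replication and 0 to 7 mitosis calls, medians ran from -0.83 to -0.22 and from -1.11 to -0.13, and without the date term the replication median was -0.24. Library totals moved the median of all genes by -0.11 in CD103 low over CD103 negative cells, where 17 replication and 2 mitosis genes were then negative and 4 genes were called higher and 14 lower, against 6 and 9. They gave 477 higher and 229 lower calls in CpG CD103 high over CD103 low cells, against 374 and 302. The causes of these shifts were not tested. The 7 replication calls over CD103 negative cells and the 6 over CD103 low cells came from fits without CD103 negative replicate 3. Group and date cannot be told apart in those fits.

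Replicate numbers are shared by the groups, but deviations from group means correlated at 0.168, -0.0064 and 0.0024 between same-numbered libraries, and no label ties the numbers to a shared source, so they were not taken as pairs, although most division genes were higher in replicate 2 in every group. With the replicate block, 17 replication and 7 mitosis genes were called in CpG CD103 high over CD103 negative cells, against 15 and 0 without it, and 7 replication genes in CpG CD103 high over CD103 low cells, against 3. With 2 or 3 libraries a group and 1 CD103 negative library in 2013, the SE of the mitosis genes was 0.18 to 0.40, and a log2 fold change as large as -0.65 was not called among them.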

Other observations

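A few further genes, chosen after their values were seen and without a list of their own, are given as values. Stmn1, the microtubule regulator stathmin, had 8.21 and 13.0 CPM in CpG CD103 high cells, 22.9 and 23.4 CPM in CD103 low cells, and 24.8, 26.1 and 10.4 CPM in CD103 negative cells. CD103 negative replicate 3 lay between the treated values, and Stmn1 was called lower over CD103 negative cells, at a log2 fold change of -1.26 (SE 0.21, adjusted p = 0.002). Ptma, prothymosin alpha, had 55.0 and 69.9 CPM in CpG CD103 high cells, 93.1 and 108 CPM in CD103 low cells, and 134, 126 and 108 CPM in CD103 negative cells, with no overlap between treated and untreated libraries (-1.06 over CD103 negative cells, SE 0.13, adjusted p = 0.00043).

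Ran, the GTPase of nuclear transport and spindle assembly, had 88.7 and 85.8 CPM in CpG CD103 high cells, 111 and 109 CPM in CD103 low cells, and 143, 149.6 and 99.0 CPM in CD103 negative cells. Its treated libraries were the lowest pair, with a log2 fold change of -0.74 over CD103 negative cells (SE 0.09, adjusted p = 0.000419). The histone chaperone Nasp (-0.84) and the chromatin proteins Dek (-0.54) and Anp32b (-0.49) were also called lower over CD103 negative cells, at adjusted p of 0.00313, 0.0025 and 0.00439. Hmgb2 was not, at -0.36 (SE 0.24, adjusted p = 0.296).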
